A study of Mus musculus with 8 samples.

Results

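The comparison set the first 4 arrays of the series by title, A1 to A4, against the last 4, A5 to A8, which together are all 8 of the 8 arrays. The members were chosen by the number in the sample title alone. The labels do not say what the number counts (order of collection, litter, extraction or hybridisation), so it is called the title order here. Each array measured the RNA of olfactory mucosa from mice on postnatal day 1. Emx2 knockout samples carry the Cre transgene of the 123Cre line and floxed Emx2 on both alleles, 123Cre:Emx2(fl/fl), and are arrays A2 and A3 (knockout replicates 1 and 2) and A7 and A8 (knockout replicates 3 and 4). Controls are littermates of both control genotypes, with 123Cre:Emx2(fl/+) on A1 and A6 (control replicates 1 and 4) and Emx2(fl/fl) without Cre on A4 and A5 (control replicates 2 and 3). Each side therefore holds 2 knockouts, 1 control with Cre and 1 control without it, and the title order and the genotype can be fitted in 1 model. Per the study's methods, the litters that gave knockouts also gave controls, and the labels do not tie arrays to litters. 123Cre acts from the immature olfactory sensory neuron (OSN) onward and, per the study's results, recombines in only part of the OSNs, which limits the knockout as a model. In bulk samples, fewer cells of a type and less RNA per cell cannot be told apart.

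Each mature OSN expresses 1 allele of 1 odorant receptor (OR) gene out of a very large family, so the mRNA of a single OR in whole mucosa comes from few cells. OR choice takes place as the neuron matures, under the homeodomain factors Lhx2 and Emx2, the Ebf factors and the cofactor Ldb1. The sum over all ORs is therefore read beside markers of mature OSNs, such as Omp, the olfactory marker protein, and the odorant transduction genes, and beside markers of immature OSNs such as Gap43.

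The deleted gene followed the labels on both sides. Emx2 stood at 10.80 on A1, 10.86 on A4, 11.00 on A5 and 10.72 on A6, the 4 controls, and at 9.80 on A2, 9.86 on A3, 10.01 on A7 and 9.93 on A8, the 4 knockouts. These and all values below are log2 values as deposited. Knockouts lay below every control, and the genotype difference with the title order in the fit was -0.94 (SE 0.078, limma adjusted p = 0.00148). Emx2 differed by 0.09 (SE 0.078) between the last and the first arrays. Array A3 stood apart from the rest, with a mean correlation of 0.979 with the other arrays against 0.988 to 0.991. The main counts are therefore also given without it, while the other gene classes, OR subsets and spans were not refitted without it. The medians of the arrays lay between 7.998 and 8.13. Xist, transcribed from the inactive X chromosome, was at 12.54 on A1, 12.87 on A6 and 13.07 on A7, where the mean of the Y-linked genes Eif2s3y, Uty and Kdm5d was lowest (5.41 to 6.62). On A2 and A8 Xist was at 9.15 and 9.93 while the Y-linked mean was 9.88 and 10.29. The arrays low in Y-linked mRNA were thus 1 of the first 4 and 2 of the last 4.

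ORs stood higher in the last arrays. The mean over the 1035 OR rows was 7.55 on A1, 7.28 on A2, 6.97 on A3 and 7.30 on A4, and 7.69 on A5, 7.67 on A6, 7.56 on A7 and 7.67 on A8. All of the last arrays were above all of the first, though A1 and A7 differed by little. The mean was 7.27 ± 0.235 (SD, n = 4) in the first arrays and 7.65 ± 0.0586 (SD, n = 4) in the last, a difference of 0.37 on the log2 scale or 1.30-fold. It was 0.26 within controls and 0.49 within knockouts, and 0.29 without A3. No test was made of this mean, because the lower OR means of the first arrays were already known when the comparison was chosen.

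**Figure D1:**
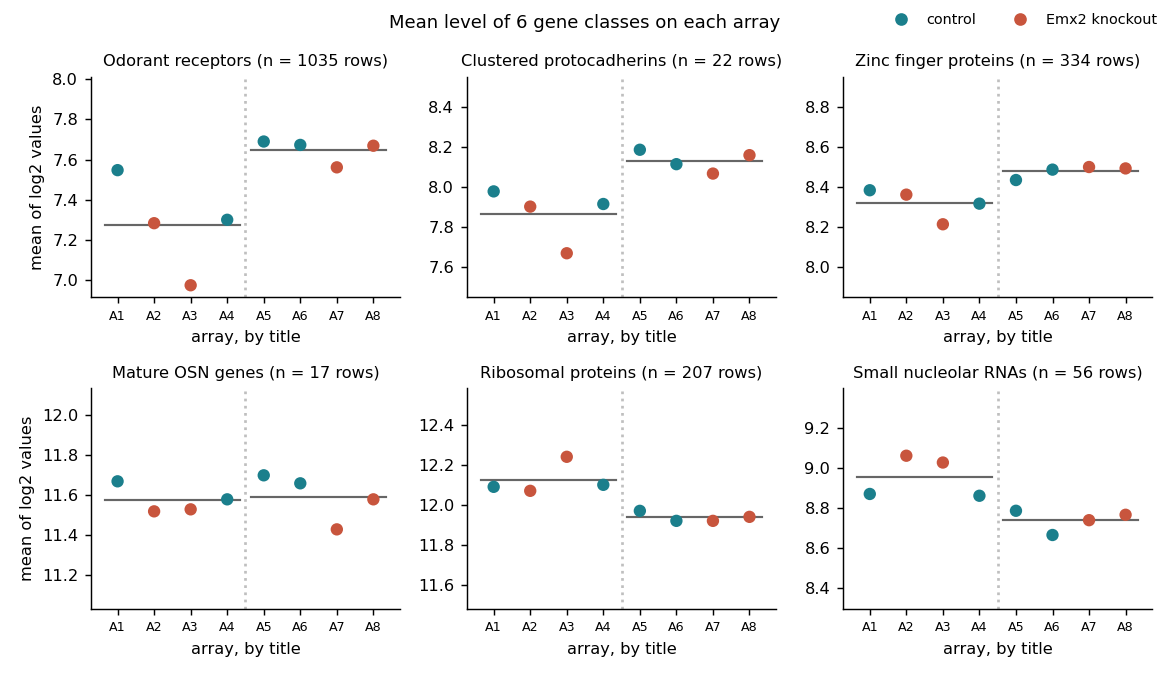
Mean of the deposited log2 values of 6 gene classes on each array, with arrays by title on the horizontal axis and a vertical axis of the same height in each panel, controls in teal and Emx2 knockouts in red, and grey lines at the mean of each side. OR means run from 6.97 to 7.55 on the first arrays and from 7.56 to 7.69 on the last, and ribosomal proteins and small nucleolar RNAs run the other way.

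Row by row, the title order passed the adjusted threshold nowhere. Of 23410 rows with a gene symbol, 0 had an adjusted p under 0.05 by limma with genotype in the fit (the smallest was 0.0821), although 7115 had an unadjusted p under 0.05. Between the sides, the methods' t-test called 0 as well and put 5964 below 0.05 unadjusted. By limma, 3374 rows had an adjusted p under 0.1 (2050 higher, 1324 lower), and 404 of them were ORs. The adjustment gave many rows the same value of 0.0821, so it does not mark out single genes. The count is given at an unadjusted p under 0.01, a threshold taken up after the values were seen. It held 1660 rows that were higher in the last arrays, 7.09% of all rows, and 899 that were lower, 3.84% of all rows. With the methods' t-test the balance turned, to 522 higher and 633 lower. That test has no genotype term, but limma without the genotype term gave 1626 higher and 1049 lower. In the main fit, of the 1035 OR rows, 366 were higher and 0 were lower at this threshold. Without A3, 1421 rows were higher and 748 lower, and of the ORs 272 were higher and 1 lower. Every last array was above every first array in 245 OR rows, where the share over all rows was 9.58%, and every last array was below every first array in 0 OR rows, where it was 9.42%. The OR median was 0.36 against -0.03 over all rows, and 960 OR rows lay above 0.

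The result of 0 rows depended on single arrays. Without A1, 2407 rows and 404 ORs passed the adjusted threshold, and with limma's array weights 3718 rows and 463 ORs did. Among the arrays left out in turn, the count of rows at an unadjusted p under 0.01 moved by over 1.5 times without A1 (3847), A4 (1038), A6 (1103), A7 (976) or A8 (909), and the OR count without A4 (219) or A8 (202). No OR row passed the adjusted threshold in the other direction in any of these fits. With arrays centred on the median of rows that are no OR, the rows at an unadjusted p under 0.01 split into 1896 higher and 608 lower.

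**Figure D2:**
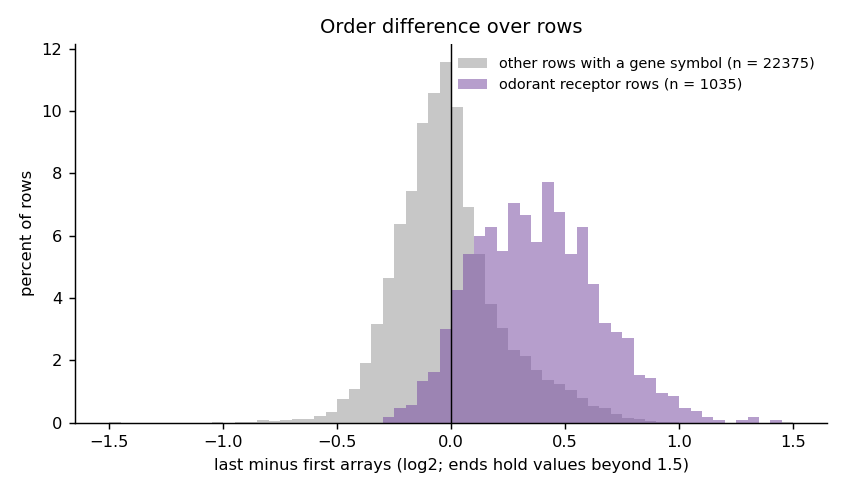
Share of rows (vertical axis, percent of each set) by the difference between the last and first arrays (horizontal axis, log2, genotype in the fit), for 1035 OR rows in purple and 22375 other rows in grey. OR rows centre on 0.36 and other rows on -0.04.

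Among ORs the difference was broad rather than carried by a few receptors. The middle 50% of OR rows lay between 0.17 and 0.56 (lower and upper quartile), the extremes were -0.29 and 1.43, and 324 rows exceeded 0.5. The 5 OR rows with the lowest p were Olfr859, Olfr1501, Olfr1100, Olfr828 and Olfr154, with adjusted p = 0.0821 each. Olfr859 was at 8.48, 8.37, 7.96 and 8.47 on A1 to A4 and at 9.18, 9.39, 8.99 and 9.30 on A5 to A8, a difference of 0.89 (SE 0.114). Olfr1100 was at 5.56, 5.07, 5.02 and 5.12 on A1 to A4 and at 6.23, 6.16, 5.73 and 6.10 on A5 to A8, a difference of 0.86 (SE 0.114). The sides did not overlap in either receptor. Olfr828, Olfr154 and Olfr1501 differed by 0.85 (SE 0.113), 0.78 (SE 0.109) and 0.49 (SE 0.0634).

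Few ORs lay below 0. The 5 with the lowest p there were Olfr524 (-0.17, SE 0.0848), Olfr1414 (-0.18, SE 0.0922), Olfr522 (-0.25, SE 0.13), Olfr1377 (-0.12, SE 0.0786) and Olfr749 (-0.17, SE 0.111), with adjusted p between 0.207 and 0.321. Olfr524 ranged from 8.29 to 8.52 on the first arrays and from 8.17 to 8.42 on the last, and the sides overlapped. In all, 75 of 1035 OR rows were below 0. Class I ORs, the family shared with fish, had a median of 0.27 (120 rows, 108 above 0), and class II ORs, the larger family of land vertebrates, one of 0.38 (908 rows, 847 above 0). The difference between the classes was not tested.

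The difference varied with level and with the chromosome. From the dimmest to the brightest quartile of OR rows by mean level, the medians were 0.29, 0.38, 0.42 and 0.41. By chromosome of the gene (assembly GRCm38.p6), the OR median was 0.47 on chromosome 2 (281 rows, 277 above 0), 0.44 on chromosome 9 (128 rows, 125 above 0) and 0.51 on chromosome 10 (56 rows, 53 above 0). It was 0.28 on chromosome 7 (221 rows, 198 above 0), 0.14 on chromosome 11 (71 rows, 57 above 0) and 0.03 on chromosome 4 (21 rows, 13 above 0). Neighbouring ORs have similar sequences and are no independent replicates, and these medians are descriptions.

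Genes of OSNs themselves did not move as the ORs did. The mature OSN list (17 of 18 genes measured) had a median of -0.02, with 8 genes above 0 and 0 at an unadjusted p under 0.01, and it was 0.04 within controls and -0.06 within knockouts. Its mean was 11.67 on A1, 11.52 on A2, 11.53 on A3 and 11.58 on A4, and 11.70 on A5, 11.66 on A6, 11.43 on A7 and 11.58 on A8, so the sides overlapped fully. Omp differed by 0.01 (SE 0.0733) and Lhx2 by -0.01 (SE 0.0693). Within the list Pde1c, the phosphodiesterase of olfactory cilia, differed by 0.47 (SE 0.148), and Gng13, a G protein gamma subunit of olfactory cilia, by -0.25 (SE 0.109), and neither passed the adjusted threshold. With arrays centred on the mean of this list, the OR difference was 0.36.

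Immature OSN genes were split. The median of the list was -0.09 (17 genes), with 3 genes higher at an unadjusted p under 0.01 and 0 lower. These 3 were Dcx, a microtubule protein of young neurons (0.48, SE 0.115), Elavl4, a neuronal RNA-binding protein (0.43, SE 0.111), and Nhlh2, a basic helix-loop-helix factor (0.37, SE 0.0833). Gap43 differed by 0.07 (SE 0.0664). In the OR choice and trafficking list (14 genes, median -0.01) Lbr, the lamin B receptor, which OSNs lack when their OR genes cluster in the nucleus, stood 0.44 higher (SE 0.134). Ebf1 stood 0.24 higher (SE 0.0752), and Ldb1, which holds enhancer complexes together, stood at a difference of -0.20 (SE 0.0728).

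**Figure D3:**
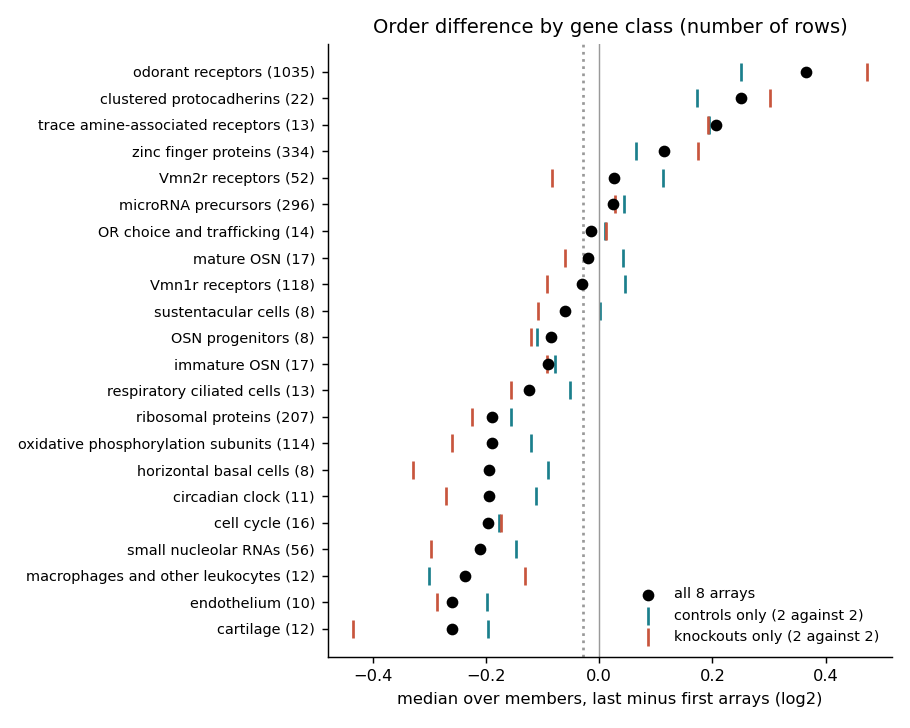
Median difference between the last and first arrays (horizontal axis, log2) for 22 gene classes (vertical axis, number of rows in brackets), over all 8 arrays as black points and within controls or knockouts as teal or red ticks, with the median of all rows dotted. ORs are at 0.36, clustered protocadherins at 0.25, mature OSN genes at -0.02 and ribosomal proteins at -0.19.

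Other receptor and surface protein families leaned the same way as the ORs. Trace amine-associated receptors, a second family of olfactory receptors, had a median of 0.21 and all 13 rows above 0. At an unadjusted p under 0.01, where 7.09% of all rows were higher, 1 of the 13 was higher. That row, Taar3, was at 8.32, 7.96, 7.69 and 7.97 on A1 to A4 and at 8.65, 8.26, 8.52 and 8.64 on A5 to A8, and the sides overlapped only through A1 and A6. Clustered protocadherins of the beta cluster, cell surface proteins that give neurons individual identities, had a median of 0.25, with all 22 rows above 0 and 5 higher at that threshold. Pcdhb18 was at 8.40, 8.38, 8.15 and 8.34 on A1 to A4 and at 8.78, 8.84, 8.80 and 8.88 on A5 to A8, a difference of 0.51 (SE 0.0754, adjusted p = 0.0821) with no overlap. Pcdhb1 (0.61, SE 0.122) and Pcdhb14 (0.49, SE 0.0906) stood higher as well.

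Vomeronasal receptors, the pheromone receptors, did not share the pattern. The 118 Vmn1r rows had a median of -0.03 and the 52 Vmn2r rows one of 0.03, with 1 row higher at an unadjusted p under 0.01 in each family and 0 lower. Within controls and knockouts the Vmn1r medians were 0.04 and -0.09 and the Vmn2r medians 0.11 and -0.08.

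Zinc finger genes, most of which code for DNA-binding proteins, were a further large class with members higher in the last arrays. Of 334 rows, 206 lay above 0, and the median was 0.11. At an unadjusted p under 0.01, 80 were higher and 4 lower, where all rows give 7.09% and 3.84%. Zfp60 was at 7.31, 7.23, 7.04 and 7.46 on A1 to A4 and at 7.87, 7.86, 7.996 and 7.82 on A5 to A8 (difference 0.63, SE 0.091, adjusted p = 0.0821), and Zfp442 differed by 0.76 (SE 0.113, adjusted p = 0.0821). Neither overlapped between the sides. A second Zfp60 row differed by 0.26 (SE 0.0982). The members with the largest differences were Zfp654 (0.98, SE 0.232), Zfp931 (0.98, SE 0.237) and Zfp81 (0.92, SE 0.195). Among the 129 groups of at least 15 genes whose symbols share their start, Cep genes, coding for centrosomal proteins, had a median of 0.23 (32 of 37 above 0, 11 higher at that threshold), and Akap genes, coding for anchors of protein kinase A, one of 0.16 (13 of 15 above 0). The other non-OR rows with the lowest p above 0 were Unc13c, which primes synaptic vesicles (0.70, SE 0.094, and 0.25 to 0.72 over its 7 rows), and Cdh12, a cadherin of neurons (0.67, SE 0.10).

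Genes of protein synthesis and of respiration leaned the other way. Ribosomal protein rows had a median of -0.19, with 19 of 207 above 0. At an unadjusted p under 0.01, 62 were lower and 0 higher, where all rows give 3.84% and 7.09%. In 135 of the 207 rows every last array was below every first, where the share over all rows was 9.42%. The mean over the 207 rows was 12.09, 12.07, 12.24 and 12.10 on A1 to A4 and 11.97, 11.92, 11.92 and 11.94 on A5 to A8. Many of these rows stand for the same gene, and with 1 row per gene the median was -0.18 for 31 Rps genes and -0.15 for 36 Rpl genes. The 7 Rps28 rows differed by -0.42 to -0.29, and the 2 Rps14 rows by -0.52 and -0.29. Subunits and assembly factors of oxidative phosphorylation had a median of -0.19, with 21 of 114 rows above 0 with 23 lower and 1 higher at that threshold. Mitochondrial ribosomal proteins with Mrps symbols had a median of -0.20 (29 genes), and Mrps21 was at 11.60, 11.43, 11.85 and 11.53 on A1 to A4 and at 10.67, 11.14, 10.73 and 10.87 on A5 to A8 (-0.75, SE 0.128, adjusted p = 0.0821).

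Small nucleolar RNAs, which guide the modification of ribosomal RNA, had a median of -0.21, with 9 of 56 rows above 0. At an unadjusted p under 0.01, 15 were lower and 0 higher, where all rows give 3.84% and 7.09%. Snord87 ranged from 8.59 to 8.87 on the first arrays and from 8.10 to 8.26 on the last (-0.49, SE 0.0798, adjusted p = 0.0821). Snora44 was at 9.57 and 9.54 on the knockout arrays A2 and A3 and between 7.98 and 8.56 on the other 6. Wdr83os, a small protein of the endoplasmic reticulum, and Cdkn1c, a cell cycle inhibitor of the imprinted Kcnq1 domain, differed by -0.85 (SE 0.141) and -0.48 (SE 0.0836), with no overlap in either. MicroRNA precursors, also short, had a median of 0.02 (296 rows, 163 above 0).

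The order difference also varied with the span of a gene. Span here is the length of the gene from start to end in GRCm38.p6, introns included, for 17544 protein-coding genes that are no OR, and it was taken up after the values were seen. From the shortest to the longest quintile, the medians were -0.09, -0.09, -0.06, -0.01 and 0.03. In the brightest tertile of genes by mean level they were -0.21, -0.15, -0.09, 0.03 and 0.09, and in the dimmest tertile -0.03, -0.02, -0.03, -0.02 and 0.0013. The part of span in the order difference was not tested. ORs have a median span of 0.951 kb, 986 of 1035 lie within the range of the shortest quintile, and their median was 0.36. In level, the dimmest tertile of the other genes ends at 7.97, and quartile 2 of the ORs ends at 7.585.

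**Figure D4:**
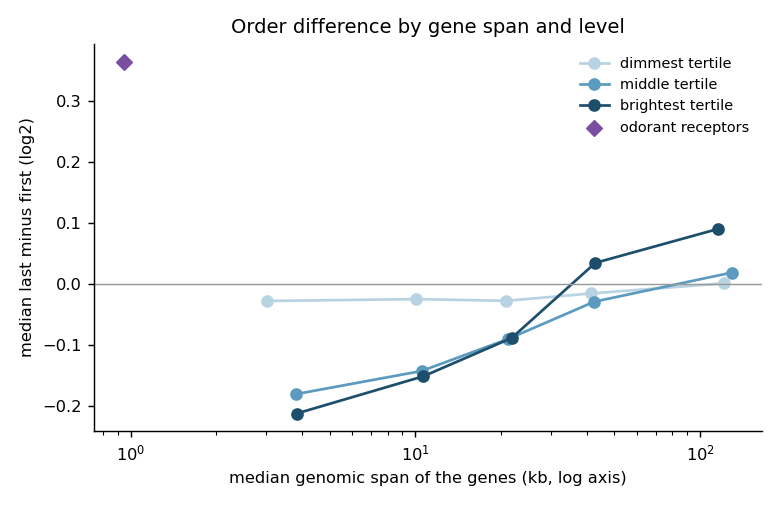
Median difference between the last and first arrays (vertical axis, log2) for protein-coding genes that are no OR, in quintiles of genomic span (horizontal axis, kb, log scale) and tertiles of mean level, with ORs as a diamond. In the brightest tertile the median goes from -0.21 in the shortest quintile to 0.09 in the longest, and in the dimmest from -0.03 to 0.0013. ORs stand at 0.36 at the short end.

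Several lists of markers of other cell types of the dissected tissue lay lower in the last arrays, where 44.0% of all rows lay above 0. For endothelium 0 of 10 genes lay above 0 (median -0.26, mean 9.16 to 9.51 on the first arrays and 8.89 to 9.28 on the last), and for cartilage 0 of 12 (median -0.26, 9.04 to 9.78 against 9.07 to 9.31). For horizontal basal cells, the reserve stem cells of the epithelium, 0 of 8 lay above 0 (median -0.19, 9.48 to 10.07 against 9.41 to 9.46), and for macrophages and other leukocytes 1 of 12 (median -0.24, 8.66 to 9.02 against 8.47 to 8.84). None of their ranges was clear of the other side except that of the horizontal basal cells. Sustentacular cells, which support OSNs, had a median of -0.06. Other lists lay higher, with medians of 0.12 for fibroblasts and matrix (4 of 8 above 0), 0.06 for adipose tissue (5 of 6) and 0.16 for bone (8 of 10). The part of these cells in the OR difference was not tested.

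Single markers showed how the arrays differed. C1qc, a complement subunit made by macrophages, was at 9.37, 9.16, 9.77 and 9.54 on A1 to A4 and at 8.75, 8.71, 8.73 and 8.37 on A5 to A8 (-0.82, SE 0.14, adjusted p = 0.0821). Krt5, the keratin of basal cells, was at 10.41, 11.40, 11.93 and 10.81 on A1 to A4 and between 10.01 and 10.37 on the last. The sides did not overlap in either gene. Amelx, an enamel protein of teeth, was at 9.62 on A1 and 7.81 on A4 and between 5.72 and 6.44 on the other 6 arrays, and bone genes averaged 10.26 on A1, 10.17 on A7 and 9.67 on A8 against 8.47 to 8.97 on the rest. The bone median was -0.71 within controls and 1.09 within knockouts.

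With the title order in the fit, more genotype differences passed the threshold. The standard error of the genotype difference shrank in 91.3% of OR rows and 76.8% of other rows, and its median over ORs went from 0.188 without the order to 0.134 with it. The lower OR means of the first arrays were known when the comparison was chosen. The smaller standard errors of ORs, and the OR calls gained with them, are therefore no independent result. Of all rows, 110 passed an adjusted p of 0.05, against 84 without the order, and all 84 were among the 110. In the knockout 7 rows rose (0.0299% of all rows) and 103 fell (0.440%). Rows of vomeronasal receptors made up 75 of the 110, all lower, of which 4 were gained with the order. Rows with 1 symbol were 26 for Vmn1r and 11 for Vmn2r. Many of the other rows carry several symbols that largely repeat, so the 75 rows are not 75 receptors. Vmn2r113 (-2.21, SE 0.16, adjusted p = 0.00148, in 2 rows with equal values), Calr4 (-2.07, SE 0.204, adjusted p = 0.00293) and Zpld2 (-1.98, SE 0.174, adjusted p = 0.00165) were among the rows that fell most. The count of 110 was 190 without A3 (49 higher, 141 lower), 57 without A4, 69 without A5, 67 without A6 or without A7, and 63 without A8. It was 462 with array weights (150 higher, 312 lower) and 42 without the dimmest rows. Centred on mature OSN genes, 28 rows rose and 73 fell.

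ORs made up 16 of the 26 rows gained. With the order in the fit 18 OR rows passed, 4 higher and 14 lower in the knockout, against 2 without it (Olfr214 and Olfr222, both among the 18). Without A3 it was 13 higher and 16 lower, and with array weights 25 and 47. At an unadjusted p under 0.01, 14 ORs were higher and 119 lower, where all rows give 0.726% and 1.91%, and 49 passed without the order. Without A3 these were 51 higher and 81 lower. The study used this p for ORs together with a false discovery rate limit. It also normalized to mature OSN mRNAs, which the main fit did not do. In each of the 18, both knockouts lay beyond both controls on the first arrays and again on the last, while over all 8 arrays pooled this was so for 14. The 18 were picked by this same difference with the side in the fit, so their separation is no further support. Of the 16 gained, 15 had an order difference above 0, about the share of all ORs (960 of 1035). The 18 lie on 8 chromosomes in GRCm38.p6, with at most 3 on any of them.

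The ORs that fell most were Olfr270 (-1.23, SE 0.188, adjusted p = 0.0303), Olfr801 (-1.18, SE 0.145, adjusted p = 0.0104) and Olfr115 (-1.10, SE 0.122, adjusted p = 0.00577). Olfr115 was at 9.52 and 9.42 on the control arrays A1 and A4 and at 8.63 and 8.04 on the knockout arrays A2 and A3, and then at 10.04 and 10.20 on A5 and A6 against 9.02 and 9.09 on A7 and A8. The genotype difference was -1.13 on the first and -1.06 on the last arrays, while both groups stood about 0.69 higher on the last. Without the order its standard error was 0.26 and its adjusted p 0.284. Olfr1087 was the most precise, at 7.72 and 7.59 on A1 and A4 against 6.93 and 6.65 on A2 and A3, and at 8.13 and 8.08 on A5 and A6 against 7.28 and 7.30 on A7 and A8 (-0.84, SE 0.0786, adjusted p = 0.00237). Olfr461, Olfr945, Olfr222, Olfr1222, Olfr1355 and Olfr291 fell by 0.83, 0.82, 0.72, 0.71, 0.69 and 0.69. Olfr8, Olfr301, Olfr99 and Olfr1214 completed the 14 and fell by 0.68, 0.67, 0.65 and 0.60.

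The 4 ORs that rose were Olfr224 (0.95, SE 0.153, adjusted p = 0.0396), Olfr1537 (0.89, SE 0.118, adjusted p = 0.0145), Olfr214 (0.83, SE 0.129, adjusted p = 0.0339) and Olfr90 (0.71, SE 0.115, adjusted p = 0.0406). Olfr1537 was at 10.49, 10.30, 10.71 and 10.75 on the controls A1, A4, A5 and A6 and at 11.28, 11.20, 11.38 and 11.94 on the knockouts A2, A3, A7 and A8. In the RefSeq gene table it is the direct neighbour of Olfr945, with 0 genes listed between them, and Olfr945 fell. Olfr945 was at 8.59, 8.42, 9.07 and 9.32 on the controls in the same order and at 7.99, 7.39, 8.29 and 8.45 on the knockouts.

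**Figure D5:**
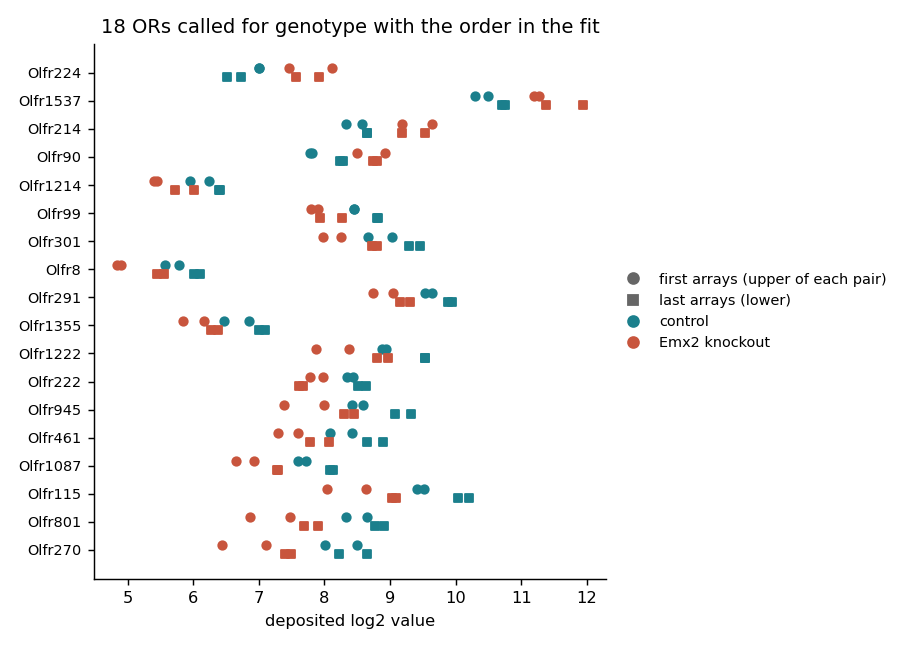
Deposited log2 values (horizontal axis) of the 18 OR rows with an adjusted p under 0.05 for genotype with the title order in the fit, 1 row per OR sorted by difference, circles for the first arrays and squares for the last, controls in teal and knockouts in red. Knockouts and controls are apart within each side in all 18, which were picked by this difference, and most pairs of squares lie to the right of the circles.

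For most ORs the RefSeq gene model is about as long as the coding sequence (the median span is 0.951 kb), so the bases before its start need not be a promoter. Promoters are therefore shown for the called ORs whose gene spans more than 2000 bases, which left 3 of the 12 called ORs in the promoter table: Olfr224, which rose, and Olfr1355 and Olfr301, which fell. Emx2 is a homeodomain protein, and the capitals mark the homeodomain core TAATTA, which reads the same on both strands, so 1 search covers both. The windows run from 250 bases before to 50 bases after the RefSeq start, at chr11:58570519-58570818 (minus strand) for Olfr224, chr10:78875299-78875598 (plus strand) for Olfr1355 and chr7:86403599-86403898 (plus strand) for Olfr301, in GRCm38.p6.
Olfr224: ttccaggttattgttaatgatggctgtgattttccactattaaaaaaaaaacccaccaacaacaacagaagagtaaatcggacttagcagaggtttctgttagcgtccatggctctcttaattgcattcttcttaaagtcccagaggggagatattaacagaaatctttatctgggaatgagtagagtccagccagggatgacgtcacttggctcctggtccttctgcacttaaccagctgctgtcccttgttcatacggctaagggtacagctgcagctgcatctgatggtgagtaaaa
Olfr1355: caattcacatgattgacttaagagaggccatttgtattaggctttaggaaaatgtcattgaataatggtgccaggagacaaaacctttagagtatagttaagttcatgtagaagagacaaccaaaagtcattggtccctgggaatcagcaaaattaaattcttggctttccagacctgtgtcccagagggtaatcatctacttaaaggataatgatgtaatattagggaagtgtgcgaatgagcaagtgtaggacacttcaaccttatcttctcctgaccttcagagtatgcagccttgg
Olfr301: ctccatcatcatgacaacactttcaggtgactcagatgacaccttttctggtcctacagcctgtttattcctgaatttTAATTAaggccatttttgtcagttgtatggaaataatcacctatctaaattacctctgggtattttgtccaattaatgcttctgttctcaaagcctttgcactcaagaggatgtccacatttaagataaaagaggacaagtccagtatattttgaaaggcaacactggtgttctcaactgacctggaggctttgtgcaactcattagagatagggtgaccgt
The core stands in 1 of these 3 windows, that of Olfr301, in 24 of 121 OR genes of that span (19.8%) and in 1381 of 23813 genes of that span (5.80%). A match is a description of the letters in the window.

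The calls of single ORs were not equally firm. Olfr1087 and Olfr115 lost theirs in 4 of the 22 or 23 alternatives run, Olfr801 in 5 and Olfr291 in 7, while Olfr945 lost it in 17 and Olfr301 and Olfr90 in 16 each. The count of 18 was 10 without A1, 5 without A4, 4 without A5, 6 without A6, 9 without A7 and 8 without A8. It was 29 without A3, 72 with array weights, 9 without the dimmest rows and 7 when all 35557 rows were tested. Centred on mature OSN genes, whose mean was 0.136 lower in the knockout (a difference of -0.136), 7 ORs rose and 8 fell, and at an unadjusted p under 0.01 39 were higher and 52 lower.

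The mean over the OR rows was lower in the knockout on both sides. Knockout A2 (7.282) lay close to control A4 (7.299), and knockout A8 (7.669) close to control A6 (7.673). The OR mean differed by -0.18, being -0.30 on the first arrays and -0.07 on the last, and the exact two-sided permutation test within sides gave p = 0.0556 over 36 assignments, the smallest p it allows. It was -0.11 without A1, -0.10 without A3 and -0.05 centred on mature OSN genes. Of 1035 OR rows, 612 were lower in the knockout on both sides and 123 higher on both, against 5945 and 6384 of all 23410 rows. The median over ORs was -0.28 on the first and -0.08 on the last arrays, against 0.0136 and -0.00323 over all rows. Markers of other cells moved with genotype as well. Genes of the cornified squamous epithelium were above 0 in 8 of 8 cases (median 0.75, mean 6.84 to 7.20 in controls and 6.82 to 8.33 in knockouts), those of respiratory ciliated cells in 12 of 13 (median 0.23, 9.93 to 10.08 and 10.02 to 10.32) and those of mature OSNs in 3 of 17, where 12077 of all 23410 rows were above 0. None of the first 2 lists had a gene past the adjusted threshold, and their part in the OR mean was not tested.

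Outside the receptors 6 rows were gained with the order, and these are named because of that gain. Pcsk1, a protease that processes prohormones, was at 7.94, 8.13, 8.37 and 8.45 on the controls A1, A4, A5 and A6 and at 7.46, 7.28, 7.89 and 7.76 on the knockouts A2, A3, A7 and A8 (-0.63, SE 0.0785, adjusted p = 0.011, against 0.356 without the order). The groups were apart over all 8 arrays, with A7 only just below A1. Cnpy1 (-0.52, SE 0.0658, adjusted p = 0.0111), Sowaha (-0.65, SE 0.103, adjusted p = 0.0363) and Faim, an inhibitor of Fas-mediated cell death (-0.43, SE 0.0671, adjusted p = 0.0345), fell as well. Gm5922 rose by 0.75 (SE 0.105, adjusted p = 0.0189), as did E330013P04Rik by 1.23 (SE 0.197, adjusted p = 0.0396). Of the 3 non-OR rows that rose, the other was Mir100hg (0.57, SE 0.079, adjusted p = 0.0187).

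Whether the genotype difference itself depended on the side was tested by the interaction. By limma 0 rows passed (smallest adjusted p = 0.939), and 645 had an unadjusted p under 0.05, 2.76% of all rows. Without A4, 4 rows passed. The rows with the lowest p included Tnn, tenascin N of bone and connective tissue, whose genotype difference was -0.77 on the first arrays and 1.46 on the last, Myl1, a muscle myosin light chain (-0.50 and 1.62), and Nr4a3, a nuclear receptor induced by stimulation (-0.82 and 1.51). In the other direction were Adh7, an alcohol dehydrogenase of epithelia (0.94 and -0.14), Aldh3a1, an aldehyde dehydrogenase (1.30 and 0.23), and Vmn1r71 (-1.43 and -2.67). Tnn was high on A1, A7 and A8 (9.96, 10.15 and 10.23 against 8.61 to 9.31), the arrays that were also highest in bone genes. The part of bone tissue in the Tnn difference was not tested.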

How the data were processed

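Per the labels, RNA of P1 olfactory mucosa from 8 samples was hybridised to Affymetrix Mouse Gene ST arrays. The authors deposited log2 values per transcript cluster, and the submitters' notes name Affymetrix Expression Console. Neither its version nor the normalization is stated in the sources used here. The table has 35557 rows, of which 23410 have a gene symbol in the platform annotation. Symbols were updated by gene number to RefSeq (GRCm38.p6, 21698 of 21789 single-symbol rows matched). OR rows have 1 Olfr symbol (1035), and their classes come from the MOR names among RefSeq synonyms (7 rows in neither). ORs and other multigene families share sequence, so signal can be split between rows.

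All rows with a symbol were fitted with limma 3.58.1 in R 4.3.3 (lmFit and eBayes, two-sided), with genotype group and side of the title order as terms, and with their product for the interaction. Benjamini-Hochberg adjustment ran over all of them. Tables were made with Python 3.11.15. The fit was tested on simulated data with known changes. The labels do not say that samples of a group are independent beyond being separate samples, so p-values measure the spread between them, and 8 arrays limit the precision.

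The members and lists were chosen with earlier results of these data known. Gene lists use 1 row per gene, the brightest, and families chosen by symbol use all rows with that symbol. Always named are Emx2, Lhx2, Omp and Gap43. Further named are, for order and genotype up to 10 ORs and 10 other rows per direction with the largest difference among those that passed, or the 5 with the lowest p, for the interaction up to 5 per direction, and up to 4 members of a list. Other genes, groups by symbol start, span, level, chromosome and OR class were chosen after values were seen. Alternatives were other terms (none, title number, 3 genotypes, sex), normalizations, filters, variance models, array weights, the methods' t-test, rows with several OR symbols, each side or group alone and each array left out.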

Additional observations from a re-analysis of the deposited data

Results flagged for a closer look

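Of 188 sets of 4 arrays tested for a value far from the other 3, 5 stood out. The criterion flags about 1 in 20 such sets by chance, and the sets share arrays. The OR mean of knockout replicate 3 (A7), 7.561, lay below the other last arrays (7.669 to 7.69). Fibroblast and matrix genes averaged 11.84 on control replicate 1 (A1), against 11.17 to 11.28 on the other first arrays. Glycolysis and hypoxia genes averaged 10.18 on knockout replicate 2 (A3), against 9.898 to 9.919 in the other knockouts. MicroRNA precursors averaged 6.307 on control replicate 4 (A6), against 6.218 to 6.232 in the other controls, and 6.347 on knockout replicate 1 (A2), against 6.218 to 6.238 on the other first arrays.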

How the results depend on the processing

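No paired analysis was possible because the labels give no replicate numbers and tie no array to a litter, and the numbers used here only name samples. Under the alternatives run, neither OR mean difference changed sign. The rows at an unadjusted order p under 0.01 turned to more lower than higher with the methods' t-test (522 higher, 633 lower). Single genes followed were Emx2, the ORs called for genotype, and the 5 ORs and 5 other rows per direction with the lowest order p. None of these changed sign, and of their 885 values 660 kept direction and side of the threshold, 195 lost their call and 30 gained one. Other named genes were not followed, and the order difference of Omp was 0.06 within controls and -0.03 within knockouts. The counts below were 0 or moved by over 1.5 times, and the cause was not tested, though fits on fewer arrays or rows test less.

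Order, rows with an adjusted p under 0.05 (0): 3718 with array weights, 15 within knockouts, and 0 to 2407 with each array left out. ORs (0): 463 with array weights, 5 within knockouts, and 0 to 404 with each array left out. Rows at an unadjusted p under 0.01 (2559): 452 with the title number as a linear term, 1556 with sex as a term, 4180 with array weights, 1155 with the methods' t-test, 139 within controls, and 909 to 3847 with each array left out. ORs at that threshold (366): 108 with the title number, 223 without the dimmest 30% of rows, 97 with the methods' t-test, 73 within controls, and 202 to 476 with each array left out. The OR mean difference (0.37) ran from 0.29 to 0.45 with each array left out.

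Genotype with the order, rows (110): 42 without the dimmest rows, 72 over all rows, 462 with array weights, 28 with the methods' t-test, 30 within the first arrays, 56 within the last, and 57 to 190 with each array left out. ORs (18): 2 without the order, 8 with the title number, 9 without the dimmest rows, 7 over all rows, 72 with array weights, 0 with the methods' t-test, 3 within the first arrays, 1 within the last, and 4 to 29 with each array left out. ORs at an unadjusted p under 0.01 (133): 49 without the order, 203 with array weights, 19 with the methods' t-test, 39 within the last arrays, and 95 to 134 with each array left out, of which 51 higher and 81 lower without A3. The OR mean difference (-0.18) ran from -0.23 to -0.10 with each array left out. The interaction gave 0 to 4 rows with each array left out.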

Other observations

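Circadian clock genes had an order difference with a median of -0.19 (2 of 11 above 0), and Dbp was at 10.88 on A3 against 9.49 to 10 on the other arrays. In the cell cycle list (16 genes, median -0.20) Kif11 and Bub1 differed by 0.60 and 0.57 while Plk1 and Aurkb differed by -0.46 and -0.41. Genes of the cornified squamous epithelium averaged 8.33 on A2, 7.98 on A3 and 7.76 on A7 against 6.82 to 7.20 on the other arrays, and A2, A3 and A7 are knockouts. Immediate-early genes had a median of -0.02 and interferon response genes one of -0.05.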
